A study of Mus musculus with 6 samples.

Results

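The 43 genes described here encode peroxisomal enzymes and peroxins in mouse kidney. They were chosen by symbol, as the rows of a table of raw counts whose GENCODE M21 name is on a list of peroxisomal genes. They comprise 29 enzymes and transporters, 12 peroxins and 2 membrane proteins, and are 43 of the 55450 genes listed. All 43 had enough counts to be tested. The kidneys came from wild type male C57BL/6J mice bought at 7 weeks of age and kept for 1 week before the experiment. The day-0 group (n = 3 mice) is labelled as control with 20% PEG, and the day-21 group (n = 3) received 0.16 g/kg of adenine with 2.4 g/kg of potassium oxonate by gavage once daily for 21 days, a model of kidney disease with high uric acid. The methods describe the day-0 mice as taken at the start, so the difference in age and handling cannot be told apart from that in treatment. Each library is bulk kidney tissue, the numbered samples of a group were taken as separate mice, and the libraries held between 10963849 and 14333311 counts.

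Peroxisomes are small organelles that shorten very long and branched fatty acids by beta-oxidation and alpha-oxidation, start the synthesis of ether lipids and oxidize several amino and hydroxy acids. Many of their oxidases pass electrons to oxygen and release hydrogen peroxide, which catalase breaks down. Their enzymes are made in the cytosol and imported whole by peroxins, and in the kidney peroxisomes are most abundant in the proximal tubule.

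Most matrix enzymes carry a short address that a receptor peroxin reads. The type 1 signal is the last 3 residues of the protein (serine, alanine or cysteine, then lysine, arginine or histidine, then leucine or methionine) and is bound by Pex5. When the coding sequences of GENCODE M21 were translated, this pattern ended 15 of the 43 members and 112 of 21501 genes with a complete coding sequence (0.521%). Coding ends of 8 of the 15 are shown because they let the addresses of enzymes that fell steeply be compared with that of Idh1, which was not called. Each is written 5′ to 3′ on the coding strand of GRCm38, with the codons of the signal in capitals followed by the stop codon.
Ehhadh (chr16:21762084-21762104, minus strand): ccccatagcAGCAAACTGtga
Pecr (chr1:72259348-72259368, minus strand): aagaagaaaGCCAAGCTCtaa
Ech1 (chr7:28832088-28832108, plus strand): atcaccttcTCCAAGCTCtga
Crot (chr5:8966852-8966872, minus strand): atgaacaccGCTCATCTTtag
Acot4 (chr12:84043776-84043796, plus strand): agagcctccTGTAGACTGtag
Hao2 (chr3:98875309-98875329, minus strand): attcagttcTCCAGATTAtaa
Dao (chr5:114024886-114024906, plus strand): ttgcctcccTCCCACCTCtga
Idh1 (chr1:65159465-65159485, minus strand): ttagctcagGCCAAACTTtaa
The first residue of the signal is serine in Ehhadh, Ech1, Hao2 and Dao, alanine in Pecr, Crot and Idh1, and cysteine in Acot4. The remaining members with a type 1 match are Hsd17b4, Scp2, Decr2, Acot8, Gnpat, Ddo and Pipox.

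The type 2 signal lies near the start of the protein and is bound by Pex7. A match (arginine or lysine, then leucine, valine or isoleucine, 5 free residues, histidine or glutamine, then leucine, alanine or phenylalanine, within the first 40 residues) was found in Acaa1a, Acaa1b, Eci2, Phyh and Pex11a, and in 0.912% of all coding genes. The stretches of 9 codons in the pair of thiolases and in phytanoyl-CoA hydroxylase are shown for their likeness, with the fixed positions in capitals.
Acaa1a (chr9:119341521-119341547, plus strand): CGGCTGcaggtagtgctgggcCACCTG
Acaa1b (chr9:119156962-119156988, minus strand): CGGCTGcaggtagtgctgggtCACCTG
Phyh (chr2:4919094-4919120, plus strand): CGGCTGcaggtccttctgggaCACCTC
A match to either pattern is a description of the letters and not a measurement of import.

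The comparison of day 21 with day 0 asks how these genes stood in the diseased kidney. Of the 43 members, 28 were lower on day 21 (65.1%) and 0 were higher, by a difference of more than 1.5-fold with a p below 0.05 in the quasi-likelihood test of edgeR, adjusted by Benjamini-Hochberg over all 16592 genes that were tested. Across all genes tested, 15.5% were called lower and 19.6% higher. The median log2 fold change of the members was -0.89, against 0.03 over all genes tested, and 41 of 43 estimates were below zero. All 3 day-21 mice lay below all 3 day-0 mice in 40 members, where 26.4% of all genes did so, and above them in 1 member, Paox, where 30.7% of all genes did. The groups overlapped in Abcd2 and Pex26. For a member whose groups did not overlap, the two-sided exact permutation p over mice was 0.1, the smallest that 3 against 3 mice can give. Calls sat close to the fold limit for some members, since Hsd17b4 (1.52-fold lower) and Hacl1 (log2 fold change -0.59) were just inside it and Pex13 (1.49-fold), Pex6 (1.47-fold) and Decr2 (1.47-fold) just outside. With the adjusted p alone and no limit on the fold, 38 members were lower and 1 higher, against 21.7% and 23.9% of all genes tested. At stricter limits (adjusted p below 0.01, more than 2-fold), 19 members were lower and 0 higher, against 7.56% and 11.6% of all genes. With libraries scaled by their size alone, 20 members were called lower, among them 18 enzymes and transporters, as were 1338 of the 16592 genes tested.

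**Figure D1:**
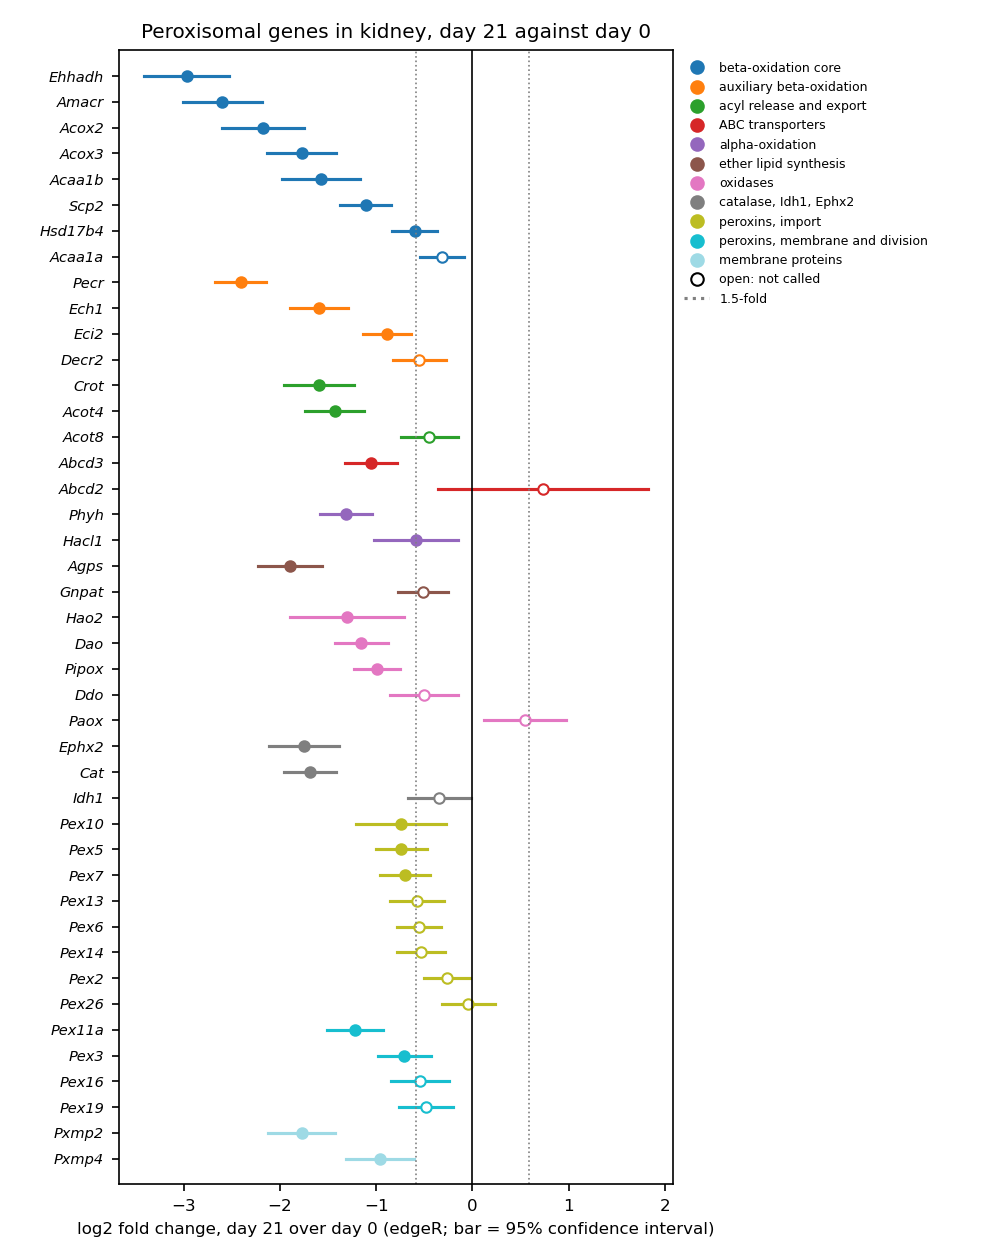
Log2 fold change of each of the 43 genes, day 21 over day 0, with its 95% confidence interval from edgeR as a bar, coloured by role and with open circles for genes not called; dotted lines mark a 1.5-fold difference. The beta-oxidation genes reach furthest to the left (Ehhadh at -2.97), the peroxins gather between -1.22 and -0.04, and Abcd2 and Paox are the 2 genes to the right of zero.

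The summed level of all members, in normalized CPM (a gene's counts relative to the TMM-adjusted size of the library), came to 9657, 11034 and 10548 on day 0 and to 4444, 3744 and 4112 on day 21. The day-21 mean was 39.4% of the day-0 mean. The 29 enzymes and transporters stood at 37.3% of their day-0 sum and the 12 peroxins at 66.0%. Within each mouse, which takes library scaling out of the comparison, the enzymes held 12.95, 13.54 and 14.53 counts per peroxin count on day 0 and 8.21, 7.28 and 7.64 on day 21. This ratio was lower in each of the 3 day-21 mice than in any day-0 mouse.

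Markers of the nephron segments moved with the members. All 18 proximal tubule markers were lower on day 21 (median log2 fold change -2.24), and none was at 0. Their summed level ran from 28351 to 42024 CPM on day 0 and from 5178 to 7432 on day 21, which is 17.7% of the day-0 mean. Of 12 markers of the loop and distal segments, 9 were lower and 1, Cldn16, was higher (median log2 fold change -1.10). Their sum stood at 60.9% of day 0. Most of that sum was Umod (mean 4663 of 7477 CPM on day 0), which was not called (-0.45). All 7 leukocyte markers tested and all 8 fibroblast markers were higher, at 468.1% and 586.9% of their summed day-0 level, whereas 2 of 6 endothelial and 3 of 4 podocyte markers were lower. Mitochondrially encoded genes took 9.39% to 9.86% of counts on day 0 and 3.82% to 4.42% on day 21. In each group, the mouse with the lowest summed enzyme level (replicate 1 on day 0, replicate 2 on day 21) also had the lowest proximal tubule sum. In bulk tissue, fewer cells of a type and less RNA per cell cannot be told apart, and the part of these shifts in the members' values was not tested.

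**Figure D2:**
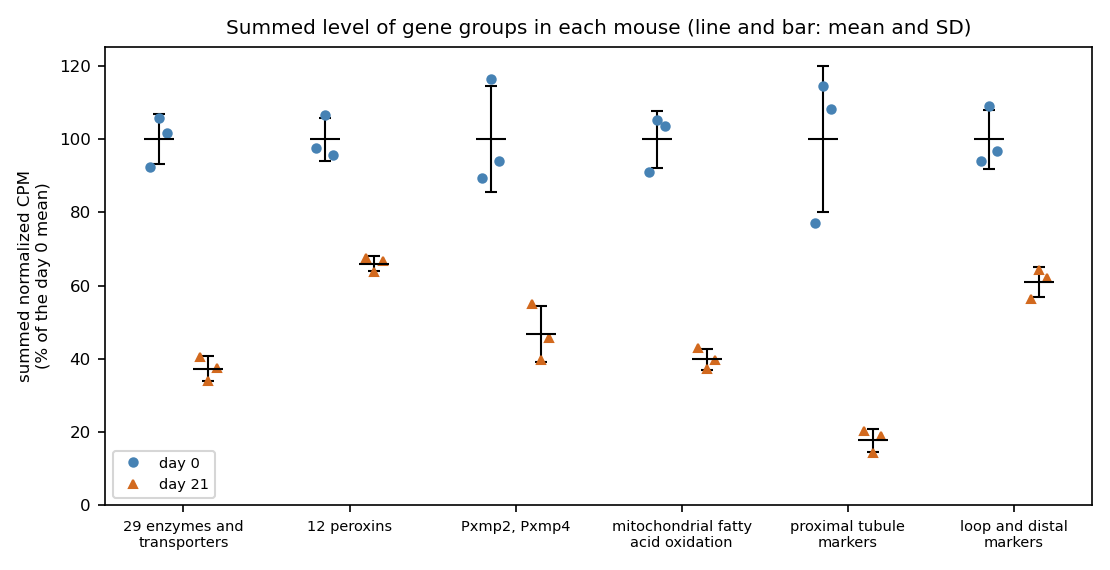
Summed normalized CPM of 6 gene groups in each mouse, as a percentage of the day-0 mean of the group; points are mice, and lines with bars are the mean and SD (n = 3). Day-21 enzymes sit at 37.3% and peroxins at 66.0% of day 0, between proximal tubule markers at 17.7% and the day-0 mean at 100%.

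The core enzymes of beta-oxidation held the 2 lowest estimates of all members, with 7 of 8 called lower and a median of -1.67. Ehhadh (ENSMUSG00000022853.7, chromosome 16, 21761287 to 21787807 of GRCm38) encodes the bifunctional enzyme that hydrates and then dehydrogenates straight-chain acyl-CoAs. Its level was 897, 1189 and 1133 CPM on day 0 against 174, 104 and 133 CPM on day 21, with a wide gap between the groups. It fell 7.84-fold (log2 fold change -2.97, standard error 0.20, adjusted p = 2.95e-06), which is rank 93 of 16592 when all genes tested are ordered from the lowest log2 fold change. Amacr (chromosome 15, 10981756 to 10996626), the racemase that turns branched acyl-CoAs into the form the oxidases accept, went from 259, 389 and 386 CPM to 64.4, 46.9 and 59.2 CPM. It fell 6.06-fold (-2.60 on the log2 scale, standard error 0.19, adjusted p = 4.07e-06), which is rank 149. The branched-chain acyl-CoA oxidases Acox2 (-2.18) and Acox3 (-1.78) and the thiolase and sterol carrier gene Scp2 (-1.11) also fell. Part of the Scp2 estimate is uncertain, as 41.4% of its 50-base words also occur in the pseudogene Scp2-ps2. Hsd17b4, the second bifunctional enzyme, which handles branched substrates and bile acid intermediates, fell by 0.60 on the log2 scale (standard error 0.10, adjusted p = 0.00101). Its 95% confidence interval, -0.83 to -0.37, lay apart from that of Ehhadh, -3.41 to -2.53, and it lost its call in 5 of 17 alternative analyses.

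Acaa1a and Acaa1b encode near-identical thiolases that complete the cycle, and they lie on opposite strands of chromosome 9 (119339676 to 119350299 and 119148023 to 119157093). Acaa1b fell from 245, 312 and 308 CPM to 122, 72.8 and 96.4 CPM (log2 fold change -1.57, standard error 0.18, adjusted p = 7.20e-05). Acaa1a was at 140, 142 and 128 CPM on day 0 and at 107, 116 and 107 CPM on day 21. It was not called (log2 fold change -0.31, adjusted p = 0.0307), and with library size alone its sign turned to 0.08. Acaa1a made up 36.4%, 31.2% and 29.3% of the pair's counts on day 0 and 46.9%, 61.4% and 52.5% on day 21. These shares are not scaled by length, and the exons of Acaa1a span 4414 bases against 1962 for Acaa1b. Per kb of exon, mean Acaa1b stayed above Acaa1a, at 147 against 30.9 CPM on day 0 and 49.4 against 24.9 on day 21. The log2 ratio of Acaa1a to Acaa1b was -1.07 ± 0.24 (SD, n = 3) on day 0 and 0.21 ± 0.43 (SD, n = 3) on day 21, a difference of 1.28 with groups that did not overlap (two-sided exact permutation p = 0.1, the smallest possible). The paralogs share 16.2% and 35.5% of their 50-base words with other genes, mainly each other. Of the exon bases, 11.4% in Acaa1b lie opposite exons of Dlec1 and 6.57% in Acaa1a opposite exons of Myd88. The split of reads between the paralogs is therefore uncertain.

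**Figure D3:**
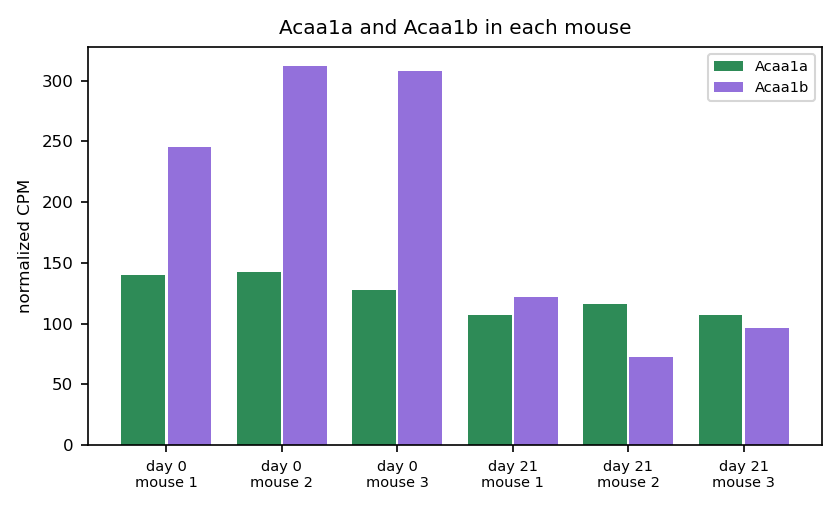
Normalized CPM of Acaa1a (green) and Acaa1b (purple) in each of the 6 mice, 1 bar per gene and mouse. Acaa1b exceeds Acaa1a in the 3 day-0 mice and in day-21 mouse 1, where it is 122 against 107, and lies under it in day-21 mice 2 and 3. The bars are not scaled by exon length. Per kb of exon, the mean of Acaa1b is the higher on both days.

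Enzymes grouped here as auxiliary act on unsaturated or unusual chains, and 3 of the 4 were called lower. Pecr, a trans-enoyl-CoA reductase, went from 367, 439 and 409 CPM to 82.7, 71.2 and 74.7 CPM (log2 fold change -2.41, standard error 0.12, adjusted p = 9.90e-07), with tight values on each day. Of the Pecr exon bases, 11.5% lie opposite exons of D230017M19Rik. Ech1, a dienoyl-CoA isomerase, went from 459, 612 and 539 CPM to 197, 169 and 168 CPM (-1.59, standard error 0.14, adjusted p = 1.10e-05). The enoyl-CoA isomerase gene Eci2 fell less, by 0.89 on the log2 scale. Decr2, the peroxisomal dienoyl-CoA reductase, was at 51.8, 63.9 and 52.6 CPM on day 0 and at 41.8, 36.2 and 36.9 CPM on day 21. Its groups did not overlap, but its 1.47-fold difference was under the limit (adjusted p = 0.00459).

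Enzymes that release shortened chains or hand them on were lower in 2 of 3 cases. Crot, which joins medium-chain acyl groups to carnitine for export to mitochondria, stood at 376, 437 and 561 CPM on day 0 and fell to 173, 135 and 147 CPM (-1.60, standard error 0.16, adjusted p = 3.23e-05). Acot4, a thioesterase, fell from 108, 109 and 86.2 CPM to 42.3, 32.6 and 37.3 CPM (-1.43, standard error 0.14, adjusted p = 2.20e-05). The thioesterase gene Acot8 was at 26.8, 27.7 and 25.0 CPM and then at 21.9, 17.9 and 18.7 CPM, and was not called (-0.45, adjusted p = 0.0193). Of the Acot8 exon bases, 12.3% lie opposite exons of another gene, as do 9.21% of those of Acot4.

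The 2 ABC transporters that carry acyl groups into the peroxisome stood at very different levels. Abcd3 was at 358, 376 and 424 CPM on day 0 and fell to 206, 171 and 181 CPM (-1.05, standard error 0.12, adjusted p = 6.41e-05). Abcd2 had 6, 6 and 9 counts on day 0 and 12, 14 and 27 counts on day 21, or 0.60, 0.49 and 0.93 CPM against 0.85, 0.83 and 1.65 CPM. Those groups overlapped, and the estimate of 0.74 was uncertain (95% confidence interval -0.35 to 1.83, adjusted p = 0.248).

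Both enzymes of alpha-oxidation fell. Phyh, the hydroxylase that starts the breakdown of phytanic acid, went from 405, 494 and 507 CPM to 199, 178 and 187 CPM (-1.32, standard error 0.12, adjusted p = 1.78e-05). Hacl1, the lyase of the next steps, was at 12.1, 13 and 11.9 CPM and then at 10.4, 7.15 and 7.22 CPM (-0.59, standard error 0.20, adjusted p = 0.0323). The Hacl1 call was lost in 7 of 17 alternatives, and 52.4% of its 50-base words also occur in other genes, among them the overlapping gene Gm49387. In ether lipid synthesis, Agps, which puts the alkyl chain in place, fell from 311, 348 and 420 CPM to 108, 81.4 and 100 CPM (-1.90, standard error 0.15, adjusted p = 7.73e-06). Gnpat, which adds the first acyl group, was at 89.6, 111 and 108 CPM on day 0 and at 75.2, 68.5 and 72.5 CPM on day 21 and was not called (-0.51, adjusted p = 0.00456). The pair of enzymes that act one after the other in this pathway thus had estimates of -1.90 and -0.51, and the difference between them was not tested.

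Among the 5 oxidases, 3 were called lower. Hao2, an oxidase of long-chain hydroxy acids, had the widest spread of the role on day 0, at 586, 467 and 235 CPM, and was at 158, 195 and 169 CPM on day 21. Replicate 3 was the low day-0 mouse, yet all 3 day-0 values lay above the day-21 values (-1.31, standard error 0.27, adjusted p = 0.00273), and without that mouse the estimate was -1.61. Dao, the oxidase of D-amino acids, fell from 300, 378 and 321 CPM to 161, 137 and 150 CPM (-1.15, standard error 0.12, adjusted p = 4.43e-05). Pipox, which oxidizes pipecolate and sarcosine, fell by 0.99 on the log2 scale. Ddo, the oxidase of D-aspartate, had an estimate of -0.50 and was not called (adjusted p = 0.0262). Paox, which oxidizes acetylated polyamines, was the member with higher values in every day-21 mouse, at 9.81, 7.74 and 6.79 CPM against 10.7, 12.3 and 12.5 CPM. Its 1.46-fold difference was under the limit (log2 fold change 0.55, standard error 0.19, adjusted p = 0.0389), and it was called higher in 4 of 17 alternatives. Of the Paox 50-base words, 28.1% also occur in other genes.

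Catalase, the main peroxide-removing enzyme of the organelle, had the highest level per length of exon of all members on both days. Cat (chromosome 2, 103453849 to 103485160) was at 1150, 1262 and 1131 CPM on day 0 and fell to 405, 329 and 364 CPM on day 21 (-1.69, standard error 0.12, adjusted p = 4.37e-06). Ephx2, the soluble epoxide hydrolase, fell from 381, 509 and 453 CPM to 149, 105 and 145 CPM (-1.75, standard error 0.16, adjusted p = 1.91e-05). Idh1, an NADPH-forming isocitrate dehydrogenase that also works in the cytosol, was at 570, 426 and 427 CPM and then at 416, 325 and 380 CPM. The day-21 values reached almost to the day-0 values (426 against 416 CPM), Idh1 was not called (-0.34, adjusted p = 0.0814), and with library size alone its sign turned to 0.04.

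**Figure D4:**
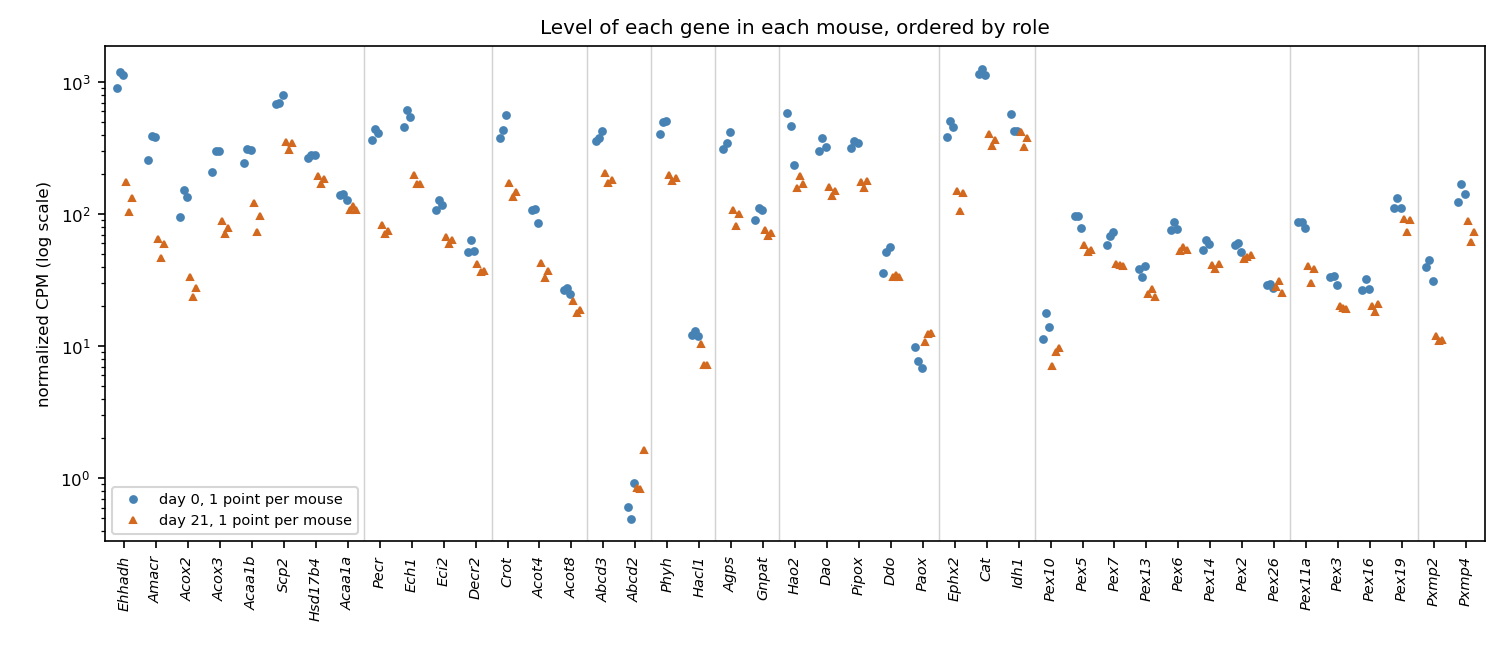
Normalized CPM (log scale) of each of the 43 genes in each mouse, day 0 as circles and day 21 as triangles, with grey lines between roles. The groups are apart in 40 genes with day 21 lower, while Pex26 and Abcd2 overlap and Paox is reversed.

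The peroxins had estimates nearer to zero than most enzymes. Of the 12, 5 were called lower, with a median of -0.57, and all 12 estimates were below zero. Among the 8 import peroxins, Pex10, a ubiquitin ligase subunit that acts on the receptors, had the lowest estimate, with 11.3, 17.9 and 13.9 CPM on day 0 and 7.13, 9.05 and 9.66 CPM on day 21 (-0.74, standard error 0.21, adjusted p = 0.0157). Pex5, the receptor for type 1 signals, fell from 96.6, 97.5 and 78.4 CPM to 58.2, 51.4 and 53.9 CPM (-0.74, standard error 0.12, adjusted p = 0.000619). Pex7, the receptor for type 2 signals, fell by a like 0.70 on the log2 scale. The docking genes Pex13 (-0.58) and Pex14 (-0.53), the ATPase gene Pex6 (-0.56) and the ligase gene Pex2 (-0.27) were not called. Of the Pex14 exon bases, 28.3% lie opposite exons of Gm17029. Pex26, which anchors the ATPase to the membrane, stood at 29.1, 29.6 and 27.8 CPM on day 0 and at 28.0, 30.9 and 25.2 CPM on day 21. The groups overlapped, and the interval of its log2 fold change ran from -0.32 to 0.23 (estimate -0.04, adjusted p = 0.811). With library size alone the estimates of Pex2 (0.12) and Pex26 (0.35) were above zero.

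Among the 4 peroxins of membrane assembly and division, Pex11a had the steepest fall of any peroxin. This gene (chromosome 7, 79735957 to 79743131), whose product elongates peroxisomes before they divide, went from 86.8, 87.3 and 78.8 CPM to 40.4, 30.1 and 38.2 CPM (-1.22, standard error 0.13, adjusted p = 4.23e-05). Pex3, which takes up membrane proteins, fell from 33.2, 33.8 and 28.9 CPM to 20.2, 19.5 and 19.1 CPM (-0.71, standard error 0.12, adjusted p = 0.00100). Its partners Pex16 (-0.54) and Pex19 (-0.48) were not called, and Pex19 was at 112, 132 and 111 CPM on day 0 and at 91.5, 73.2 and 90.1 CPM on day 21. The count of peroxins called lower turned on the settings, with 8 when day-0 replicate 1 was left out, 1 with library size alone and 10 at any fold. Over all genes tested, 2708 of 17225, 1338 of 16592 and 21.7% were lower at these settings, in this order. Both membrane proteins fell. Pxmp2, which forms a channel for small solutes, went from 39.9, 44.8 and 31.4 CPM to 11.9, 11 and 11.1 CPM (-1.78, standard error 0.16, adjusted p = 1.32e-05). Of the Pxmp2 exon bases, 10.8% lie opposite exons of Gm15788. Pxmp4 went from 124, 169 and 142 CPM to 88.8, 61.8 and 73.0 CPM (-0.96, standard error 0.16, adjusted p = 0.000746).

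Compared per kb of exon, the order of levels was rearranged. On day 0 it ran from Cat (452 CPM per kb) through Ehhadh (360), Pecr (267), Phyh (248) and Ech1 (235), and on day 21 from Cat (140) through Idh1 (135), Phyh (99.3), Scp2 (96.4) and Hao2 (84.8). Ehhadh moved from rank 2 to rank 13 of 43, at 45.9 CPM per kb, and Idh1 from rank 9 to rank 2. Cat and Ehhadh together made 21.6% of the summed member CPM on day 0 and 12.3% on day 21. Across the 43 genes, Spearman's rho between the day-0 level per kb and the log2 fold change was -0.65, against -0.46 over the 16592 genes tested. Genes are not independent replicates, and both measures use the same day-0 libraries. Of the 15 enzymes with a type 1 match 10 were called lower (median -1.11), as were 11 of the 14 enzymes and transporters without one (median -1.45), and the difference was not tested.

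**Figure D5:**
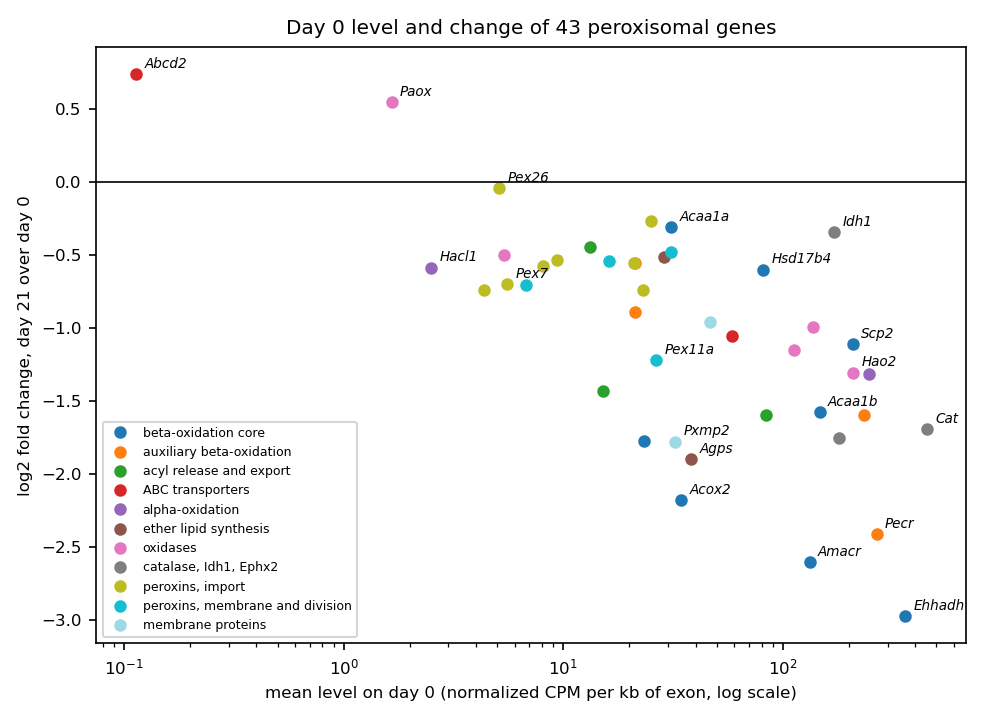
Log2 fold change of each of the 43 genes against its mean day-0 level in normalized CPM per kb of exon (log scale), coloured by role, with selected genes named. Ehhadh, Pecr and Amacr combine a high day-0 level with the lowest fold changes, and Idh1 and Hsd17b4 stand above other genes of like level.

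Genes of peroxisomal fatty acid breakdown are known targets of PPARα, a nuclear receptor that binds DNA with an RXR partner at a direct repeat of AGGTCA with 1 spacer base. Among 12 lipid-related nuclear receptors and coactivators, 11 were tested and 7 were called lower, against 15.5% of all genes tested. Whether these genes bear on the values of the members was not tested. Ppara itself went from 97.2, 76.0 and 93 CPM to 29.5, 15.4 and 23.1 CPM (-1.97, standard error 0.21, adjusted p = 4.23e-05), and Hnf4a, the most read gene of the list, had an estimate of -1.28. At the upper end Pparg, at 1.5 to 3.29 CPM on day 0, had an estimate of 0.58 and was not called (adjusted p = 0.224). The repeat, with at most 2 mismatches on either strand, was sought in RefSeq promoters of GRCm38.p6 that reach from 250 bases before to 50 bases after the start of a gene. It was found in 3 of the 36 members that had a promoter entry (8.33%), namely Acot4, Acox2 and Cat, and in 1190 of 27025 genes (4.4%). The 2 matches that lie wholly upstream of the start, those of Cat and Acot4, are shown on the strand of the gene to let their letters be compared with the repeat, with the 13 matched bases in capitals.
Cat (chr2:103485337-103485365, minus strand): actctcagAGGTCAGAGAACAccagcagg
Acot4 (chr12:84038350-84038378, plus strand, repeat on the other strand): gctcagccccgaagcaTGACCTTTGGCCG
Such a match does not show binding. The windows of Ehhadh and Pecr did not hold these letters, and Amacr had no entry in the promoter table. Bases outside the windows were not searched.

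Of 48 further peroxisomal genes fixed as a list, 44 were tested, with 18 lower, 2 higher and a median of -0.45. The lowest was Mpv17l, at 548, 778 and 864 CPM on day 0 and 111, 70.3 and 109 CPM on day 21 (-2.91, standard error 0.22, adjusted p = 5.70e-06). The most read was Slc27a2, an acyl-CoA synthetase and fatty acid carrier, which fell from 3722, 4102 and 4148 CPM to 1747, 1251 and 1637 CPM (-1.37, standard error 0.15, adjusted p = 5.09e-05). The highest was Uox (chromosome 3, 146570426 to 146632305), which encodes urate oxidase, the urate-degrading peroxisomal enzyme that oxonate inhibits. Uox had 0 counts in all 3 day-0 mice and 27, 22 and 23 counts on day 21, or 1.91, 1.31 and 1.41 CPM. Set against a floor of 3 counts per library, the day-21 mean was at least 5.40-fold higher. The edgeR test, which does not use this floor, gave an adjusted p of 0.000464. At 1.54 CPM, the day-21 mean of Uox stayed low beside the members other than Abcd2 (1.11 CPM). No exon base of Uox overlaps another annotated gene, and none of its 50-base words occurs in one. The second gene called higher was Tmem35a, with an estimate of 0.62.

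The mitochondrial genes of fatty acid oxidation, which finish the breakdown of chains that peroxisomes shorten, were lower in all 17 cases tested of 18 listed (median -1.17). The estimate nearest to zero was -0.70 for Hadha, and their summed level stood at 39.9% of day 0, beside 37.3% for the peroxisomal enzymes and transporters.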

How the data were processed

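Kidney mRNA of 6 mice was sequenced for the authors as paired reads of 150 bases. The deposited table holds raw counts per gene for each mouse, without normalization. Its submitters' processing notes name TopHat and mm10; the counting program and its strand setting are not given in the sources used here, so reads of overlapping opposite genes cannot be parted. Identifiers are those of GENCODE M21 (GRCm38).

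Counts were filtered with filterByExpr (minimum count 10, minimum total 15), scaled by TMM and compared with edgeR 4.0.16 (R 4.3.3, quasi-likelihood test, all 6 mice, no block). The fit was also run on simulated counts. Those held no difference in scaling between the groups, so that run does not cover the choice of scaling. Genes were called at an adjusted p below 0.05 with more than 1.5-fold difference, after the study's methods. No pair of mice within a group was a duplicate (chi-square per gene 7.17 to 25.7), and pairs across the groups were not checked. At these depths 3 counts correspond to 0.179 to 0.309 CPM, a floor for counting error only. Intervals are 95%.

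The members, lists and tests were chosen with earlier results of these data known. Values per mouse are given for all members of roles with up to 3 genes, and otherwise for the 2 lowest and the highest log2 fold change; Acaa1b is added for the ratio to its paralog. Alternatives were RLE, upper-quartile or library-size scaling, other filters, DESeq2 1.42.0, limma-voom (limma 3.58.1), a replicate block, other thresholds, libraries without mitochondrially encoded genes, and each mouse left out. The labels give each replicate a number and a code but do not state that they came from separate mice; they were taken as such, and p-values measure only the spread between these samples.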

Additional observations from a re-analysis of the deposited data

How the results depend on the processing

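Across the 17 alternatives, 20 of the 43 members kept the same side of the call and the same sign, 20 changed their call in at least 1, and 4 changed sign, 1 of which (Acaa1a) also changed its call in another. Library size alone moved the median of all genes from 0.03 to 0.42 and that of the members to -0.5012, with 20 members called lower, 1 member called higher, 1 peroxin called lower and 81.7% of called genes higher (55.8% with TMM). Of all 16592 genes tested, 1338 were called lower and 5982 higher with library size alone. Under it Acaa1a (0.0784), Idh1 (0.0397), Pex2 (0.1242) and Pex26 (0.3494) turned sign. Upper-quartile scaling (63.0% of called genes higher) gave 1 member called higher and 0.0469 for Pex26. An adjusted p at any fold gave 1 member higher and 10 peroxins lower, where 23.9% of all genes tested were higher and 21.7% lower. The stricter limits (adjusted p below 0.01, more than 2-fold) gave 19 members and 1 peroxin lower, where 7.56% of all genes tested were lower. In these cases the setting itself moves the limit. The TMM factors were 0.8838, 0.8524 and 0.8864 on day 0 and 1.119, 1.171 and 1.143 on day 21. Library size alone leaves these factors out, which moves the estimates upward. Why the factors differ between the groups was not tested, nor was the cause of the shift under upper-quartile scaling.

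Leaving out each mouse in turn gave 27 to 34 members called lower, 0 to 1 called higher, 4 to 8 peroxins lower, a Pex26 estimate of -0.116 to 0.0331 and an Acaa1a to Acaa1b difference of 1.06 to 1.48. Over all genes tested, these fits called from 2283 of 16816 to 2708 of 17225 lower. With the replicate block, 28 members, 21 enzymes and 5 peroxins were called lower, as without it. For mice with equal replicate numbers, the correlations of their deviations from the group means were -0.03, 0.18 and 0.11. Day-0 replicates 1 and 2 both correlated best with day-21 replicate 2 (0.04 and 0.18), and day-0 replicate 3 with day-21 replicate 1 (0.13). With 3 mice per group, whose deviations are tied through their mean, these values cannot decide whether the numbers pair the mice. Depth limits Abcd2, with 6 to 27 counts (no value at a mean of at least 50 counts), and Uox, at 0 on day 0.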
